A study of Mus musculus with 17 samples.

Results

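The heat shock chaperone genes described here are 10 genes of mouse lung, Hspa1a, Hspa1b, Hsph1, Dnajb1, Hsp90aa1, Hspb1, Hspa8, Bag3, Hspd1 and Hspe1. They were chosen by name from a table of read counts for 45777 genes, with earlier results of these libraries known, and their levels in the same libraries are therefore given as a description. All 10 were among the 22052 genes with enough counts to be fitted. RNA was sequenced from lungs of wild-type male C57BL/6 mice, which were 6 weeks old before a week of acclimatisation. The irradiated mice received a single focal dose of 65 or 75 Gy to the left lung, and the controls received no radiation. Lungs were collected 2 weeks later, called the inflammation stage by the study, or 6 weeks later, the fibrosis stage, and RNA of the irradiated lungs was taken from the lesions. The 17 libraries form 6 groups of 3, except for 65 Gy at 6 weeks with 2, and both doses of a time point share the same controls.

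Molecular chaperones bind unfolded proteins and help them to fold, and many of their genes are switched on within minutes to hours when heat, oxidants or other stresses leave misfolded protein in the cell. The switch is the transcription factor HSF1, which binds heat shock elements, arrays of the letters GAA and TTC in alternation, in front of these genes. HSP70 proteins work with HSP40 co-chaperones (Dnaj genes), which deliver substrates, and with nucleotide exchange factors, which release them, while HSP90 takes over clients such as kinases and steroid receptors, and the mitochondrial chaperonin folds imported proteins.

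Total counts were between 46764569 and 66797879 per library, and the lowest count of any of the 10 genes was 550, so counting error was small beside the differences between libraries. Levels are given as CPM, library-size-scaled counts with TMM factors, and levels of different genes are compared per kilobase of transcript. All 15 markers of lung epithelium and endothelium were expressed, with a summed level of 23567 to 51937 CPM over the libraries. Before the results, a feature of the controls has to be stated. Control libraries 3126 and 3127 of 2 weeks held the 2 highest levels of all 17 libraries for 7 of the 10 genes, a pattern found in 1.93% of the 22052 genes. Both were above the remaining control of that time, 3128, for 10 of 10 genes, against 26.8% of all genes. The 2 libraries were singled out after these levels were seen, so nothing is read from the shares. These libraries also had the lowest total counts of the series, 50543026 and 46764569, and control 3128 had the next lowest, 53775500. Results that rest on 3126 and 3127 are followed by values without them, and a fit without both leaves a single control library, which is then assumed to vary like the other groups. The labels do not say that the libraries of a group came from separate mice, so errors describe the spread between libraries.

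**Figure D1:**
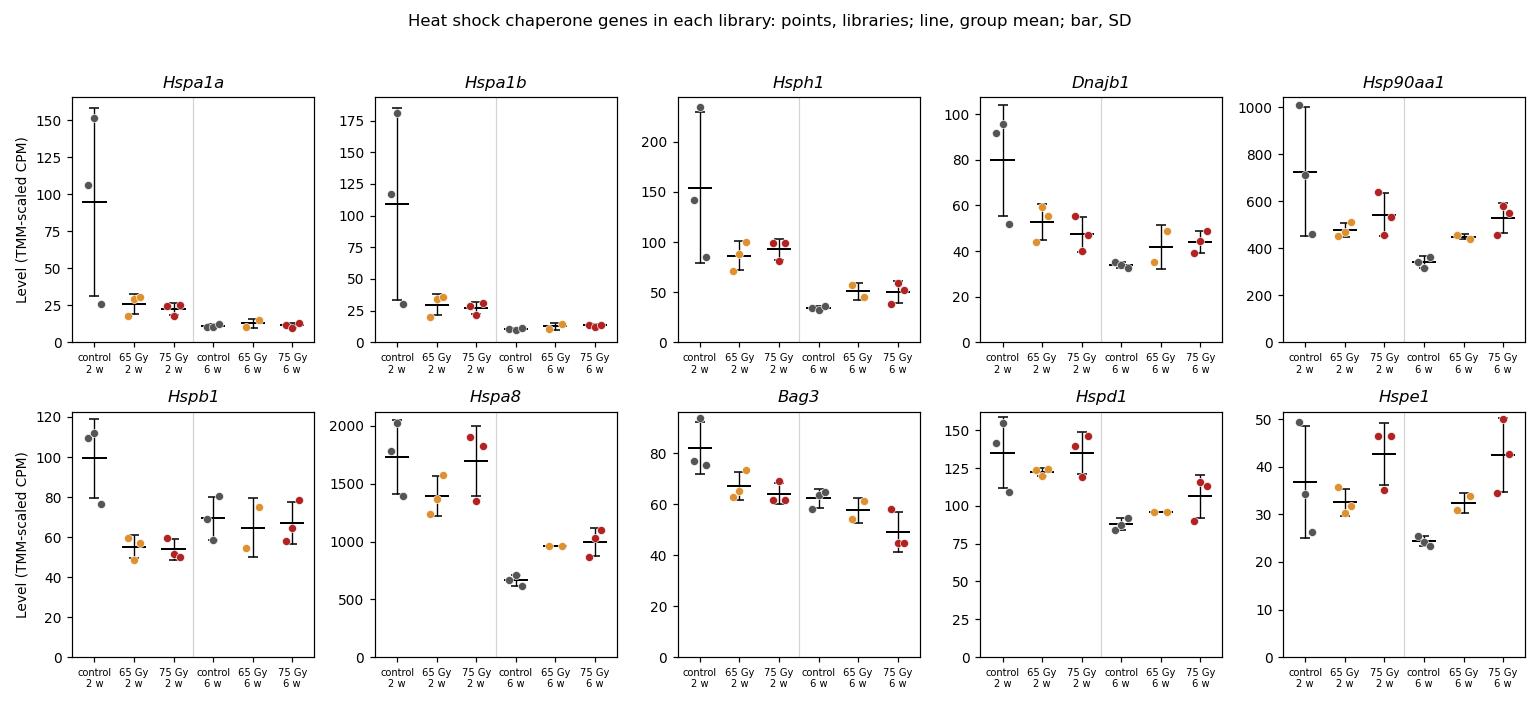
Level of each of the 10 heat shock chaperone genes in CPM, 1 panel per gene, with points for libraries, a line for the group mean and a bar for the SD (n = 3, and n = 2 for 65 Gy at 6 weeks). In the Hspa1a panel 2 points of the 2-week controls, at 106 and 152 CPM, stand above all other libraries, whose highest value is 30.5 CPM.

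The stress-inducible HSP70 genes, Hspa1a and Hspa1b, had the widest range, with a highest library 15.5 and 18.4 times the lowest, against 1.84 to 7.22 times for the other 8 genes. Hspa1a (GeneID 193740, chr17:34969359-34972156, GRCm38.p6) and Hspa1b (GeneID 15511, chr17:34956429-34959238) each consist of 1 exon and lie 10120 bases apart. Of the 2868 windows of 100 bases in the Hspa1a transcript, 1350 occur letter for letter in Hspa1b. A single read of this length therefore cannot always be assigned. The reads were paired, and windows do not count pairs whose other mate lies in a unique stretch. The split between the 2 genes is uncertain. Their promoters are as alike. The 250 bases before the start of each gene, from RefSeq on GRCm38.p6, are shown because the 2 genes moved together, with the heat shock element letters GAANNTTC in capitals (minus strand, chr17:34972157-34972406 and chr17:34959239-34959488).
Hspa1a: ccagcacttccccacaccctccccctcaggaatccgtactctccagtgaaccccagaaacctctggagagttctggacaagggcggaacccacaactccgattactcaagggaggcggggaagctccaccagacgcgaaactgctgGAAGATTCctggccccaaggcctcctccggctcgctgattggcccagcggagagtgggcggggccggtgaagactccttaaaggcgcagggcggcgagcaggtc
Hspa1b: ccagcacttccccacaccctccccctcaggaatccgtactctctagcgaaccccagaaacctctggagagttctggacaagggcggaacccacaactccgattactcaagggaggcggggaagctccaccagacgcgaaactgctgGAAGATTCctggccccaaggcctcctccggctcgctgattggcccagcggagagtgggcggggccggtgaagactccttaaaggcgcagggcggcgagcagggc
The 2 stretches differ at 3 positions, C44T, T47C and T249G, with the Hspa1a letter first and positions counted from 1 at the 5′ end shown. Both hold the 8 letters of the element 104 bases before the start. GAANNTTC, which reads the same on both strands, occurs in 7.86% of 32851 RefSeq promoters of 300 bases (250 before to 50 after a start).

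Hspa1a was at 106, 152 and 26.1 CPM in controls 3126, 3127 and 3128 of 2 weeks, at 18.0, 28.9 and 30.5 CPM after 65 Gy and at 24.4, 17.9 and 24.8 CPM after 75 Gy. At 6 weeks it was at 10.4, 10.6 and 12.4 CPM in the controls, at 10.7 and 14.7 CPM after 65 Gy and at 11.5, 9.77 and 12.9 CPM after 75 Gy. The 2 high controls stood apart, whereas control 3128 lay inside the range of the 6 irradiated libraries of 2 weeks, and every 2-week library was above every 6-week library. The group means ran from 94.8 ± 63.6 CPM (SD, n = 3) in the 2-week controls through 25.8 ± 6.85 after 65 Gy and 22.4 ± 3.87 after 75 Gy to 12.7 ± 2.90 (n = 2) after 65 Gy, 11.4 ± 1.58 after 75 Gy and 11.1 ± 1.11 in the controls at 6 weeks. Of these neighbours in order, 75 Gy at 2 weeks and 65 Gy at 6 weeks alone did not overlap.

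Hspa1b followed the same course, with 117, 181 and 29.8 CPM in the 2-week controls, 20.0, 33.8 and 35.4 CPM after 65 Gy and 28.4, 21.8 and 30.7 CPM after 75 Gy. At 6 weeks it was at 10.6, 9.81 and 11.5 CPM in the controls, at 10.7 and 14.6 CPM after 65 Gy and at 13.9, 12.1 and 13.8 CPM after 75 Gy. Control 3127 was the highest of 17 libraries for both genes. Hspa1a made up between 44.6% and 51.9% of the counts of the pair, with a median of 46.7%. The counts thus kept nearly the same proportion from the highest to the lowest library. Since the transcripts share many windows, the part of read assignment in this proportion was not tested.

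The genes that work with HSP70 had a narrower range. Hsph1 (GeneID 15505, chr5:149616843-149636498) encodes HSP110, a nucleotide exchange factor of HSP70. It was at 142, 235 and 85.2 CPM in the 2-week controls, at 70.7, 88.5 and 99.8 CPM after 65 Gy and at 98.9, 80.9 and 99.0 CPM after 75 Gy. By 6 weeks it was at 34.4, 32.5 and 36.3 CPM in the controls, at 56.9 and 44.9 CPM after 65 Gy and at 37.8, 59.6 and 52.1 CPM after 75 Gy. All 9 libraries of 2 weeks were above all 8 of 6 weeks, and at 6 weeks all 5 irradiated libraries were above the 3 controls. Its start region holds a longer element, the units TTC, GAA and TTC, each 2 bases from the next. This element, or its reverse form of GAA, TTC and GAA, occurs in 0.603% of all promoters, and 30 bases around it (chr5:149636287-149636316, minus strand, GRCm38.p6) are shown with the element in capitals.
Hsph1: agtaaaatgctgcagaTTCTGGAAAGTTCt
This element starts 37 bases after the start in one RefSeq promoter entry of Hsph1 and 16 bases after it in the other, and it contains a GAANNTTC and a TTCNNGAA by construction.

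Dnajb1 (GeneID 81489, chr8:83608175-83612653), the HSP40 protein that hands substrates to inducible HSP70, was at 91.7, 95.9 and 51.9 CPM in the 2-week controls, at 43.9, 59.1 and 55.2 CPM after 65 Gy and at 55.2, 40.1 and 46.9 CPM after 75 Gy. In the 6-week libraries it was at 35.0, 33.7 and 32.5 CPM in the controls, at 35.1 and 48.6 CPM after 65 Gy and at 39.2, 44.4 and 48.7 CPM after 75 Gy. Here too 3126 and 3127 were apart from 3128, which lay among the irradiated libraries. Bag3 (GeneID 29810, chr7:128523583-128546981), a co-chaperone that links HSP70 to selective autophagy, varied least among these partners. Its levels were 76.8, 93.7 and 75.2 CPM in the 2-week controls, 62.8, 65.2 and 73.5 CPM after 65 Gy and 61.6, 69.1 and 61.8 CPM after 75 Gy. At 6 weeks they were 58.1, 63.8 and 64.9 CPM in the controls, 54.0 and 61.0 CPM after 65 Gy and 58.2, 44.7 and 44.7 CPM after 75 Gy. For Bag3 control 3128 stood above all 6 irradiated libraries of its time, as the other 2 controls did.

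Hspa8 (GeneID 15481, chr9:40801276-40805202) is the constitutive cytosolic HSP70, and Hsp90aa1 (GeneID 15519, chr12:110691036-110696395) the inducible cytosolic HSP90. Per kilobase they had the highest levels of the 10, with medians over 17 libraries of 517 and 140.2 CPM per kb, against 6.05 for Hspa1a and 7.15 for Hspa1b. Hspa8 was at 1784, 2025 and 1393 CPM in the 2-week controls, at 1237, 1371 and 1577 CPM after 65 Gy and at 1908, 1354 and 1827 CPM after 75 Gy. At 6 weeks Hspa8 was at 669, 711 and 617 CPM in the controls, at 959 and 964 CPM after 65 Gy and at 864, 1032 and 1100.1 CPM after 75 Gy. Hspa8 thus separated all 2-week from all 6-week libraries, and at 6 weeks all irradiated libraries from the controls.

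Hsp90aa1 was at 1011, 710.4 and 459.9 CPM in the 2-week controls, at 451, 469 and 511 CPM after 65 Gy and at 639, 457 and 534 CPM after 75 Gy. At 6 weeks it was at 343, 317 and 365 CPM in the controls, at 456 and 441 CPM after 65 Gy and at 455, 581 and 551 CPM after 75 Gy. Among the 10 genes it alone was highest in 3126. Transcripts of Hspa8 and Hsp90aa1 share sequence with processed pseudogenes, and 62.8% and 47.5% of their windows of 100 bases also occur in transcripts of other genes, so their levels depend on how such reads were counted. The same holds for Hspb1, Hspd1 and Hspe1 with 42.7%, 26.9% and 20.4%, while Hsph1, Dnajb1 and Bag3 had no such window.

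Hspb1 (GeneID 15507, chr5:135887919-135889563), the small heat shock protein HSP25, holds unfolded protein in soluble complexes without ATP. It was at 109.7, 112 and 76.3 CPM in the 2-week controls, at 59.4, 48.7 and 57.3 CPM after 65 Gy and at 59.7, 51.7 and 50.1 CPM after 75 Gy. Later, at 6 weeks, it was at 68.9, 58.6 and 80.4 CPM in the controls, at 54.3 and 75.0 CPM after 65 Gy and at 57.8, 64.6 and 78.7 CPM after 75 Gy. Its irradiated libraries of 2 weeks were all below the 3 controls, 3128 included, while its groups of 6 weeks overlapped.

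The chaperonin genes Hspd1 (HSP60, GeneID 15510, chr1:55077833-55088243) and Hspe1 (HSP10, the lid of the HSP60 barrel, GeneID 15528, chr1:55088148-55091317) lie head to head and overlap by 96 bases. Whether counting used the strand is not given in the sources used here. The promoter of Hspe1 lies within the annotated start of Hspd1 on the other strand and holds the long element in both forms, in overlap, starting 89 bases before the Hspe1 start, shown in capitals in 30 bases (chr1:55088053-55088082, plus strand, GRCm38.p6).
Hspe1: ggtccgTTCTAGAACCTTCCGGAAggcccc
Of the 8 genes with a RefSeq promoter, Hsph1, Hspd1 and Hspe1 held a long element, where the elements of Hspd1 and Hspe1 are 1 site read on opposite strands, and 7, all but Dnajb1, held GAANNTTC or TTCNNGAA, which occur in 15.1% of all promoters. Hspa8 and Hsp90aa1 have no entry.

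Hspd1 was at 142, 155 and 109 CPM in the 2-week controls, at 124, 119 and 124 CPM after 65 Gy and at 139.7, 119 and 146 CPM after 75 Gy. In the libraries of 6 weeks it was at 83.9, 87.7 and 92.1 CPM in the controls, at 96.0 and 95.8 CPM after 65 Gy and at 90.0, 116 and 113 CPM after 75 Gy. In contrast with the HSP70 genes, control 3128 had the lowest Hspd1 level of all 2-week libraries. Hspe1 was at 49.5, 34.2 and 26.4 CPM in the 2-week controls, at 35.8, 30.3 and 31.7 CPM after 65 Gy and at 46.6, 35.2 and 46.5 CPM after 75 Gy. At 6 weeks Hspe1 was at 25.4, 24.3 and 23.3 CPM in the controls, at 30.9 and 33.9 CPM after 65 Gy and at 34.5, 50.1 and 42.7 CPM after 75 Gy. Its highest library was 3142, which received 75 Gy at the fibrosis stage, and not a control.

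**Figure D2:**
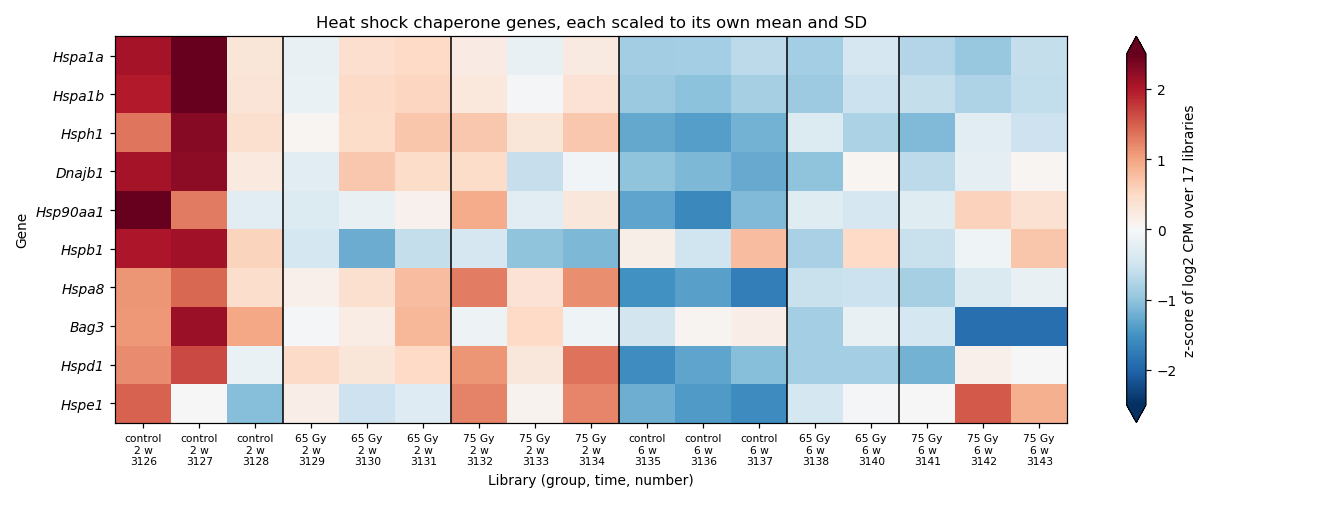
Each gene's log2 CPM scaled to its own mean and SD over 17 libraries (colour, z-score), with genes in rows and libraries in columns by group. The 2 leftmost columns, controls 3126 and 3127 of 2 weeks, have mean z-scores of 1.69 and 1.82 over the 10 genes, while control 3128 is at 0.17 and the 6-week controls are between -1.05 and -0.84.

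The controls of 6 weeks were compared with those of 2 weeks to see how the genes differed without radiation. All 10 genes were lower at 6 weeks, and 6 of them passed both limits for a call, which were 0.05 for the adjusted p and 1 for the size of the log2 fold change. The 6 were Hspa1a (log2 fold change -3.09 ± 0.44, SE), Hspa1b (-3.36 ± 0.45), Hsph1 (-2.16 ± 0.28), Hspa8 (-1.38 ± 0.16), Dnajb1 (-1.24 ± 0.20) and Hsp90aa1 (-1.09 ± 0.21). Of all genes 0.336% were called lower, and since the genes were chosen with such results known, nothing is read from the difference between these shares. The median over the 10 was -1.16, beside 0.01 over all genes tested. With the limit on p alone Hspd1 was added, where 1.02% of all genes were lower and 0.612% higher. The other 4 were at -0.62 ± 0.12 (Hspd1), -0.59 ± 0.19 (Hspe1), -0.52 ± 0.17 (Hspb1) and -0.40 ± 0.12 (Bag3). The groups did not overlap for 9 of the 10, all but Hspb1, beside 11.2% of all genes. Without controls 3126 and 3127 all 10 were still lower but closer to 0, with -1.23 for Hspa1a, -1.49 for Hspa1b, -1.31 for Hsph1 and -1.07 for Hspa8, and 1 gene, Hsph1, was called. When the 6 libraries compared were fitted alone, 1 gene, Hspa8, was called.

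Other genes, also chosen with earlier results known, differed between the same controls, and their values are a description. Of 15 circadian clock genes 6 were called higher at 6 weeks and 2, Arntl and Npas2, called lower, and without controls 3126 and 3127 2 were called higher and the same 2 lower. The summed level of the list was 621 to 995 CPM in the 2-week controls and 1778 to 1961 CPM in the 6-week controls. Cirbp, a cold-inducible RNA-binding protein, was at 40.4, 42.8 and 52.7 CPM in the 2-week controls and at 90.4 to 98.9 CPM in the 6-week controls, a log2 fold change of 1.07 ± 0.13 (adjusted p = 0.00127, quasi-likelihood test of edgeR with Benjamini-Hochberg adjustment). Without controls 3126 and 3127 it was at 0.84 ± 0.19 and was not called. Of 20 immediate-early genes 0 were called by edgeR, 5 had an unadjusted p under 0.05, and their summed level was 2298 to 2974 CPM at 2 weeks and 2300 to 3804 CPM at 6 weeks. The part of these differences in the levels of the chaperone genes was not tested, and the age of the mice and the occasion of collection cannot be told apart.

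**Figure D3:**
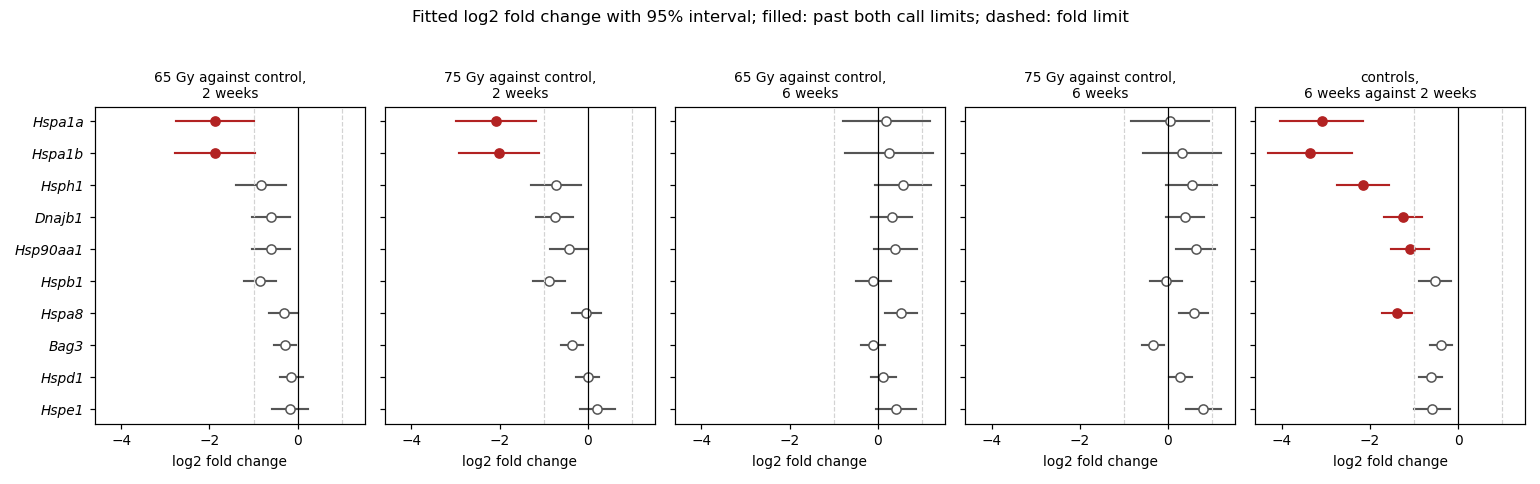
Fitted log2 fold change of each gene (point) with its 95% interval (line) in 5 comparisons, with filled red points for genes past both call limits and dashed lines at a log2 fold change of 1 in either direction. Red points are limited to Hspa1a and Hspa1b in the 2-week comparisons with 65 and 75 Gy, and to 6 genes in the comparison of the controls, where the lowest is Hspa1b at -3.36.

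At the inflammation stage each dose was compared with the controls of 2 weeks. After 65 Gy Hspa1a (-1.88 ± 0.42) and Hspa1b (-1.88 ± 0.42) were called lower and the other 8 were not called, where 0.880% of all genes were called lower. After 75 Gy the same 2 genes were called lower (-2.08 ± 0.42 and -2.02 ± 0.42), where 2.07% of all genes were. With the limit on p alone 3 genes passed after 65 Gy (Hspb1 in addition) and 5 after 75 Gy (Hspb1, Dnajb1 and Bag3 in addition), beside 11.0% and 22.3% of all genes. The genes were chosen with these calls known, and nothing is read from the shares. The median over the 10 genes was -0.60 after 65 Gy and -0.57 after 75 Gy, beside -0.01 and 0.00 over all genes, and without controls 3126 and 3127 it was 0.01 at each dose, beside 0.02 and 0.04. Hspb1 was next in size with -0.85 ± 0.17 and -0.88 ± 0.17, short of the fold limit. Hspb1 and Bag3 were lower in all 6 irradiated libraries than in the 3 controls, as were 9.02% of all genes. After 75 Gy the intervals of Hspd1 and Hspe1 were -0.26 to 0.26 and -0.18 to 0.62, while without controls 3126 and 3127 the 2 genes were at 0.31 and 0.71.

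These differences of Hspa1a and Hspa1b rested on controls 3126 and 3127. Without them the log2 fold changes of the 2 genes were -0.02 and -0.00 after 65 Gy and -0.21 and -0.14 after 75 Gy, and 0 of the 10 genes were called at either dose. In fits of the libraries compared alone 0 were called as well. Control 3128 by itself was within the range of the irradiated libraries for 6 genes, above it for Hspb1 and Bag3 and below it for Hspd1 and Hspe1. Without the 2 controls, against control 3128 alone, Hspb1 was at -0.47 after 65 Gy and -0.49 after 75 Gy. With all libraries it was at -0.85 and -0.88. When 3128 was left out in place of them, Hspa1a was at -2.32 and -2.53 and 4 genes were called at each dose.

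**Figure D4:**
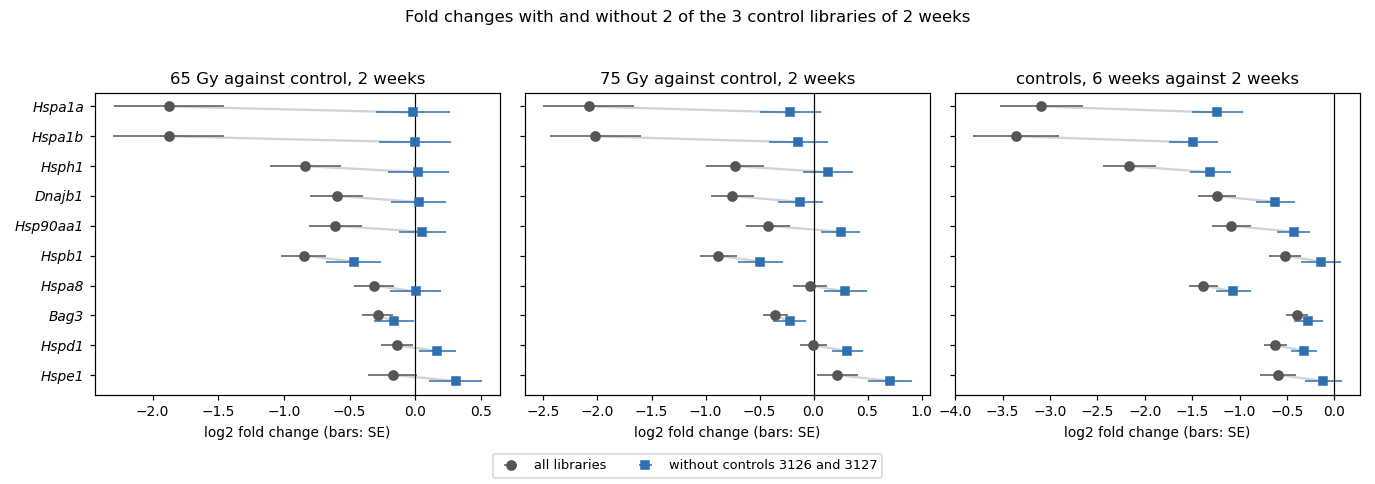
Log2 fold change with its SE of each gene from all libraries (grey circles) and without controls 3126 and 3127 of 2 weeks (blue squares), in 3 comparisons that use these controls. For Hspa1a after 65 Gy the value moves from -1.88 to -0.02, and in the comparison of the controls from -3.09 to -1.23.

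Cell type markers moved in the same comparison. The 5 macrophage markers summed to 164 to 230 CPM in the 2-week controls and to 862 to 1662 CPM in the 6 irradiated libraries, with 4 of 5 called higher at each dose, and 3 and 4 without controls 3126 and 3127. The 7 neutrophil markers summed to 266 to 570 CPM in the controls and to 83.2 to 205 CPM after irradiation, with 4 of 7 called lower at each dose. Without controls 3126 and 3127 the median log2 fold change of this list was -1.27 after 65 Gy and -1.35 after 75 Gy. The sums of 3126, 3127 and 3128 were 570, 423 and 266 CPM. The 15 lung markers summed to 42611 to 51937 CPM in the controls and to 23567 to 45136 CPM after irradiation. The 7 cardiac muscle markers summed to 314 to 400 CPM in the controls and to 66.5 to 303 CPM in the irradiated libraries, and 1, Actc1, was called lower after 75 Gy. The 4 adipocyte markers summed to 35.5 to 40.2 CPM in the controls, 3.68 to 71.0 CPM after 65 Gy and 0.928 to 10.8 CPM after 75 Gy. No marker of these lists was at 0 in every library. The part of these cells in the levels of the chaperone genes was not tested, and in bulk lung fewer cells of a type and less RNA per cell cannot be told apart.

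At the fibrosis stage edgeR and DESeq2 called 0 of the 10 genes at either dose, where 5.28% of all genes were called by edgeR after 65 Gy and 10.4% after 75 Gy. At an unadjusted p under 0.05 the counts in edgeR were 1 and 5 of 10, beside 29.4% and 45.6% of all genes. The differences were small and mostly upward, with medians over the 10 of 0.28 and 0.35 beside 0.01 and 0.04 over all genes. Hsph1, Dnajb1, Hsp90aa1, Hspa8 and Hspe1 were higher in all 5 irradiated libraries than in the 3 controls, as were 22.0% of all genes. The largest value after 75 Gy was that of Hspe1 (0.80 ± 0.19), followed by Hsp90aa1 (0.63 ± 0.21) and Hspa8 (0.59 ± 0.15), and after 65 Gy Hspa8 was at 0.53 ± 0.17. With the adjusted p alone as the limit, these 3 genes and Bag3 (-0.34 ± 0.12) passed after 75 Gy and Hspa8 passed after 65 Gy, while 36.0% and 14.7% of all genes did. Hspa1a was at 0.19 ± 0.46 and 0.04 ± 0.42, and its 95% interval after 75 Gy ran from -0.85 to 0.92. Macrophage markers summed to 151 to 188 CPM in the controls and to 747 to 888 CPM in the irradiated libraries of this time, and plasma cell markers to 464 to 524 CPM and to 866 to 1836 CPM. Of the 15 lung markers 5 were called lower after 75 Gy. No marker of the macrophage and plasma cell lists was at 0 in every library, and their part in the levels was not tested.

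No gene was called between the doses. Between 75 and 65 Gy 0 of the 10 and 0% of all genes were called by edgeR at either time, and 0 of the 10 had an unadjusted p under 0.05, as had 1570 of 22052 genes at 2 weeks and 1431 at 6 weeks. DESeq2 also called 0 of the 10. The widest interval was that of Hspa1b at 6 weeks, from -0.93 to 1.07, and the largest difference at 2 weeks was that of Hspe1 (0.39 ± 0.19, with an interval of -0.01 to 0.79). From 2 to 6 weeks edgeR and DESeq2 called 0 of the 10 genes within either dose, where 0.340% of all genes were called after 65 Gy and 3.16% after 75 Gy. At an unadjusted p under 0.05 the counts were 5 and 6 of 10, beside 12.7% and 26.6% of all genes. With the limit on the adjusted p alone Hsph1, Hspa8 and Bag3 passed after 75 Gy, beside 10.8% of all genes. Hspa1a was at -1.02 ± 0.47 after 65 Gy and -0.97 ± 0.42 after 75 Gy, and Hspa1b at -1.24 ± 0.48 and -1.02 ± 0.42. Hspa1a, Hspa1b, Hsph1, Hspa8, Bag3 and Hspd1 were lower in every 6-week library than in every 2-week library of the same dose, as were 19.1% of all genes for 65 Gy and 13.6% for 75 Gy. Over all 17 libraries, irrespective of dose, Hspa1a, Hspa1b, Hsph1 and Hspa8 were lower in all 8 of 6 weeks than in all 9 of 2 weeks, a pattern of 0.603% of all genes.

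The effect of a dose at 6 weeks was also set against its effect at 2 weeks. For 65 Gy the difference was positive for all 10 genes, with 2.07 ± 0.61 for Hspa1a and 2.13 ± 0.62 for Hspa1b, and 0 of 10 were called (0.0136% of all genes), with 7 of 10 at an unadjusted p under 0.05, beside 8.65% of all genes, and 0 called by DESeq2. For 75 Gy it was 2.12 ± 0.59 for Hspa1a and 2.34 ± 0.59 for Hspa1b, and again 0 of 10 were called (0.254% of all genes), with 8 of 10 at an unadjusted p under 0.05 beside 16.1% of all genes, and 5 called by DESeq2. Without controls 3126 and 3127 the values of Hspa1a were 0.22 and 0.26 and those of Hspa1b 0.27 and 0.47. Without control 3128 Hspa1a was at 2.51 and 2.56 and Hspa1b at 2.57 and 2.79, and 2 and 5 of the genes were called.

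The 10 genes did not vary as a block. Over 17 libraries the Pearson r of log2 CPM between pairs of them had a median of 0.76, from 0.99 for Hspa1a with Hspa1b to -0.25 for Bag3 with Hspe1, and a median of 0.61 without 3126 and 3127. These values describe libraries that share groups and differ in depth. For deviations from the group means, with all 17 libraries, the median was 0.65. Among 14473 other genes those most like Hspa1a by Pearson r were Uspl1 (0.93, and 0.83 without the 2 controls), a SUMO protease, Ccdc117 (0.91 and 0.75), P4ha1 (0.89 and 0.81), a subunit of collagen prolyl hydroxylase, and the co-chaperones Dnaja1 (0.88 and 0.77) and Fkbp4 (0.88 and 0.57). Most like the mean z-score of all 10 were Dnaja1 (0.97 and 0.95), the pseudogenes Gm15542 (0.96 and 0.94) and Gm7816 (0.96 and 0.96), and the HSP90 co-chaperones Chordc1 (0.95 and 0.96) and Ahsa1 (0.95 and 0.92). Of the windows of 100 bases in Gm15542 and Gm7816, 65.5% and 45.8% also occur in Dnaja1 transcripts, so their counts may hold reads of Dnaja1. Of the 80 other chaperone genes with a RefSeq promoter 2, Chordc1 and Dnajb6, held the long element.

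The wider chaperone network was followed in 97 other genes in 7 lists, of which 95 were fitted. The lists were chosen with earlier results known, so their calls and p-values are a description. In the comparison of the controls 3 were called lower at 6 weeks and 0 higher, beside 0.336% and 0.240% of all genes. Dnaja1, an HSP40 co-chaperone, was at 405, 382 and 213 CPM in the 2-week controls and at 127, 133 and 127 CPM in those of 6 weeks, a log2 fold change of -1.37 ± 0.22 (adjusted p = 0.00585, quasi-likelihood test of edgeR). The other 2 were Chordc1 (-1.24 ± 0.16, adjusted p = 0.00151, same test) and Ahsa2 (-1.21 ± 0.24, adjusted p = 0.0238, same test). Ahsa2 is an activator of the HSP90 ATPase. Without controls 3126 and 3127 the log2 fold changes of Dnaja1, Chordc1 and Ahsa2 were -0.73, -0.78 and -0.55, smaller in size but still negative. With all libraries, by the adjusted p alone 13 of 95 were lower and 0 higher, beside 1.02% and 0.612% of all genes. Of the 13, 7 belong to the 16 genes of the HSP90 list. This count rests on controls 3126 and 3127. Without them the median log2 fold change was -0.05 over the 95 genes and -0.12 over the HSP90 list, beside 0.01 over all genes. Controls 3126 and 3127 were the 2 highest libraries for 11 of the 95, beside 1.93% of all genes, all chosen here after their values were seen, namely Hspa1l, Dnaja1, Dnaja4, Dnajb2, Bag5, Ahsa1, Ahsa2, Chordc1, Fkbp4, Unc45a and Dnajc3.

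Irradiation was followed in the same 95 genes. At 2 weeks edgeR and DESeq2 called 0 of 95 after 65 Gy and 2 after 75 Gy, where edgeR called 4.35% and 7.74% of all genes. After 65 Gy 25 of 95 had an unadjusted p under 0.05 in edgeR, beside 25.4% of all genes. After 75 Gy the 2 genes called by edgeR were Hspa1l and Sdf2l1. Hspa1l, the HSP70 gene beside Hspa1a, was lower (-1.18 ± 0.40, adjusted p = 0.0454, quasi-likelihood test of edgeR). Sdf2l1, a partner of chaperones in the endoplasmic reticulum, was higher (1.15 ± 0.24, adjusted p = 0.00341, same test). Hspa1l was at 2.3, 3.2 and 0.9 CPM in the 2-week controls, again high in 3126 and 3127, was at 0.05 ± 0.46 without them, and shares windows of 100 bases with Hspa1a and Hspa1b. Sdf2l1 was at 1.55 ± 0.32 without them. Sdf2l1 was also called higher at 6 weeks, from 8.63 ± 0.53 CPM (SD, n = 3) in the controls to 17.7 ± 1.70 CPM (n = 2) after 65 Gy and 19.4 ± 1.96 CPM (n = 3) after 75 Gy. It was the single call after 65 Gy (1.04 ± 0.27, adjusted p = 0.0181, same test), and after 75 Gy its log2 fold change was 1.17 ± 0.24 (adjusted p = 0.00201, same test).

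After 75 Gy at 6 weeks Unc45b, a chaperone of muscle myosin, was called lower (-1.13 ± 0.20, adjusted p = 0.000652, quasi-likelihood test of edgeR), with 28.6 to 30.5 CPM in the controls and 10.6 to 18.1 CPM after 75 Gy. Of 7 cardiac muscle markers 1 was called higher and 0 lower in this comparison. Skeletal muscle markers summed to 4.05 to 13.7 CPM in the controls and to 9.50 to 14.6 CPM after 75 Gy. The part of muscle in the level of Unc45b was not tested. Hsf2bp, a binding partner of HSF2, was called higher (1.36 ± 0.46, adjusted p = 0.0333, same test) at a level of at most 1.01 CPM. By the adjusted p alone 27 of 95 were higher and 8 lower, beside 18.0% of all genes in each direction. All 14 genes of the cytosolic chaperonin and prefoldin list had positive values, 8 of them passed, and their median was 0.37, while 9 of the 18 genes of the endoplasmic reticulum list passed upward and 1 downward, with a median of 0.31. The median over all genes tested was 0.04. In the comparison of the controls the same 2 lists had medians of -0.30 and -0.44, with 0 and 4 genes lower by the adjusted p, and without controls 3126 and 3127 of -0.02 and -0.25, with 0 and 0.

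**Figure D5:**
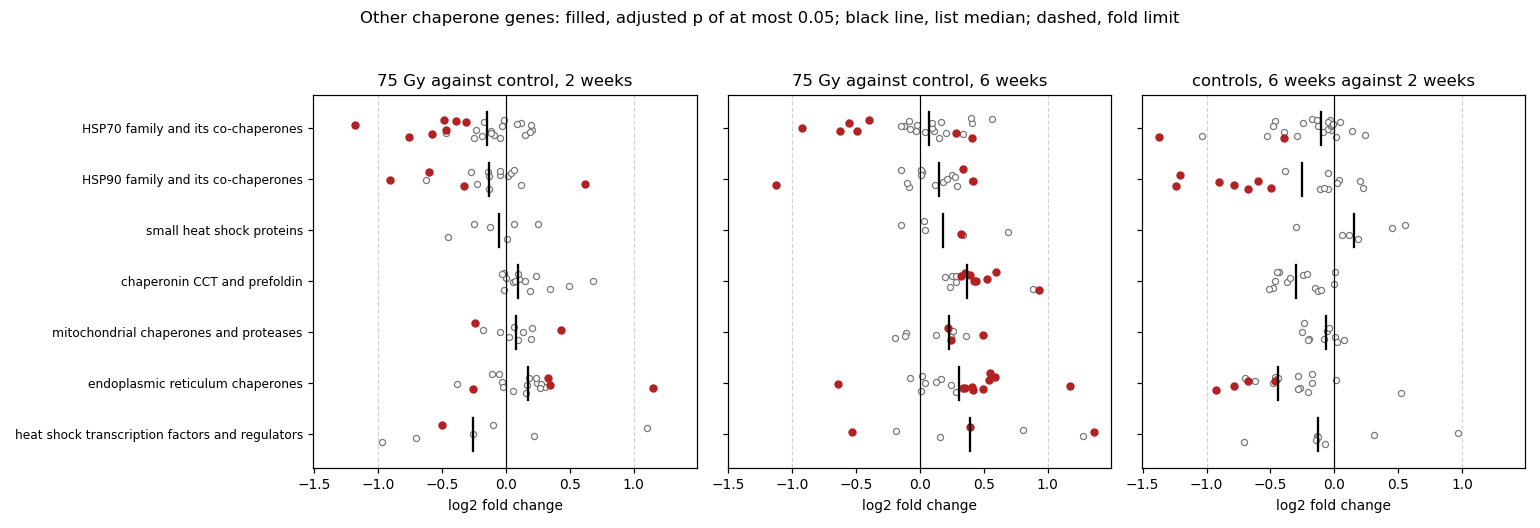
Log2 fold change of 95 other chaperone genes in 7 lists (rows) in 3 comparisons, with filled points for an adjusted p of at most 0.05, black lines for list medians and dashed lines at a log2 fold change of 1 in either direction. After 75 Gy at 6 weeks the 14 points of the chaperonin list all lie above 0, with a median of 0.37.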

How the data were processed

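Trimming by the authors used Trimmomatic, alignment to GRCm38.p6 used HISAT2, and StringTie followed. How its output became read counts is not given in the sources used here. They deposited whole-number counts for 45777 genes without normalization. A single edgeR model (4.0.16, in R 4.3.3) took the counts of all 17 libraries after filterByExpr (minimum count 10, minimum total 15, 22052 genes) and TMM scaling, with 1 coefficient per group and the quasi-likelihood test. P-values were adjusted by Benjamini-Hochberg over all genes. A call needed both an adjusted p no higher than 0.05 and a log2 fold change of 1 or more in size. SE and 95% intervals are from this fit. Total counts were 46764569 to 66797879 per library, and errors are those of the spread between libraries. CPM per kilobase used the longest coding transcript of GENCODE.

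The 10 genes, the 7 chaperone lists and the 12 context lists were chosen with earlier results of these data known. No p-value of a single gene is therefore printed for the 10 genes. Their calls, intervals and counts under a limit on p are a description. The same holds for the calls and adjusted p-values printed for genes of the lists, which are no independent support. All 10 are named. Of the chaperone lists up to 3 called genes per list with the smallest p are named in 5 comparisons, and for likeness the 5 genes with the highest r. Alternatives were RLE factors, every gene with a count, DESeq2 1.42.0, only the groups compared, no fold limit and each library left out. Leaving out controls 3126 and 3127 together and summing Hspa1a with Hspa1b were chosen after seeing the data. The fit was tested on simulated data.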

Additional observations from a re-analysis of the deposited data

How the results depend on the processing

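No paired analysis was possible because the numbers in the labels name single libraries and no 2 groups share one. RLE factors left the counts of called genes within 1.5 times. With only the groups compared, calls among the 10 genes were 0 for each dose at 2 weeks, 1 for the controls and 1 for 75 Gy from 2 to 6 weeks, and among other chaperone genes 0 for 75 Gy at 2 weeks and 0 for the controls. With every gene that had a count, 1 other chaperone gene was called for 75 Gy at 2 weeks. DESeq2 called 5 of the 10 for the difference between the effects of 75 Gy. Without a fold limit, calls among the 10 were 5 for 75 Gy at 2 weeks, 1 for 65 Gy and 4 for 75 Gy at 6 weeks and 3 for 75 Gy from 2 to 6 weeks, and among other chaperone genes 4 and 18 for 65 and 75 Gy at 2 weeks, 7 and 35 at 6 weeks and 13 for the controls. Without controls 3126 and 3127, calls were 0 of the 10 for each dose at 2 weeks, 1 of the 10 for the controls and 0 other chaperone genes for the controls; the cause was not tested.

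With 1 library left out, the 10 genes gave 0 to 4 calls for 65 Gy (0 without control 3127 or 65 Gy library 3129, 4 without control 3128) and 2 to 4 for 75 Gy at 2 weeks, 5 to 6 for the controls, and 0 to 2 and 0 to 5 for the differences between the effects of 65 and 75 Gy, the higher values being those without control 3128. The other chaperone genes gave 0 to 1 and 1 to 3 for 65 and 75 Gy at 2 weeks, 0 to 1 and 1 to 4 at 6 weeks and 2 to 4 for the controls. Hspa1a and Hspa1b summed gave -1.88 and -2.05 at 2 weeks and -3.23 for the controls. The lowest count of any of the 10 genes was 550.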

Other observations

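The levels of 2 further gene groups are described here across groups, without a test beyond that of the controls given above. The 20 immediate-early genes, transcription factors and signalling genes that respond within minutes to stimulation, had summed levels of 2974, 2331 and 2298 CPM in controls 3126, 3127 and 3128, of 1532 to 2639 CPM in the irradiated libraries of 2 weeks and of 2506 to 4884 CPM in those of 6 weeks. The controls with the highest Hspa1a levels were thus the highest and the middle of their group. The second group is the pair of cold-inducible RNA-binding proteins. Cirbp was between 29.5 and 52.7 CPM in the 9 libraries of 2 weeks and between 73.8 and 98.9 CPM in the 8 libraries of 6 weeks, without overlap, in the direction opposite to Hspa1a, Hspa1b, Hsph1 and Hspa8. Rbm3 was between 99.2 and 139 CPM in the 2-week controls and between 157 and 266 CPM in the irradiated libraries of that time.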
